A study of Mus musculus with 6 samples.

Results

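The SOX genes Sox2, Sox4, Sox5, Sox6, Sox8, Sox9, Sox10, Sox11 and Sox12 encode transcription factors, and they are described here in embryonic mouse submandibular glands treated with blebbistatin and in control glands. They were taken by symbol, and all 9 were found among the 24067 genes of the deposited gene table. Blebbistatin inhibits non-muscle myosin II, the motor that tenses the actin cortex. Glands of ICR embryos at embryonic day 13 (E13) gave 3 libraries with blebbistatin and 3 control libraries, with no other genotype or agent named in the labels. The sources used here do not give dose, duration or vehicle, and the tissue label names the gland where the series title names its epithelial buds. Whether the 3 libraries of a group were separate cultures or litters is also unstated, so that all p-values refer to the spread among these libraries, and this can be technical.

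SOX proteins share a DNA-binding HMG box that sits in the minor groove and bends the DNA, and each usually acts beside a partner factor. The SoxE genes Sox8, Sox9 and Sox10 are known from neural crest and glia, and Sox9 also drives cartilage formation. In salivary glands Sox9 and Sox10 mark the cells of the end buds, from which acini form, and Sox2 marks early progenitors. The SoxC genes Sox4, Sox11 and Sox12 are activators of embryonic progenitor cells. The SoxD genes Sox5 and Sox6 lack an activation domain of their own and work with Sox9 in cartilage.

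Values are FPKM, which are fragments scaled by transcript length and library total, so levels can be compared between genes. Depth was estimated from the value of a single fragment at 27100000 to 32600000 fragments per library, and between 11453 and 11592 genes reached 1 FPKM. Epcam, an epithelial adhesion molecule, stood between 371 and 405 FPKM with blebbistatin and between 402 and 444 FPKM in controls. Col1a1, a collagen typical of mesenchyme, ranged between 0.588 and 1.02 FPKM with blebbistatin and between 0.843 and 3.06 FPKM in controls, and 6 of 10 endothelial markers, Cdh5, Kdr and Tie1 among them, were under 0.1 FPKM in all 6 libraries. The 10 endothelial markers summed to between 8.13 and 9.58 FPKM with blebbistatin and between 8.41 and 15.2 FPKM in controls, mostly from Egfl7, which was highest in control replicate 1 (14.4 FPKM). Pecam1, an endothelial adhesion molecule, stood between 0.422 and 0.553 FPKM with blebbistatin and between 0.303 and 0.382 FPKM in controls, without overlap and under the filter. The 12 mesenchymal markers summed to between 350 and 395 FPKM with blebbistatin and between 298 and 370 FPKM in controls. Most of this sum was Vim alone, with 276 to 370 FPKM over the 6 libraries. The neuronal list had none of its 12 genes at a mean of 1 FPKM. Genes with a mean of at least 1 FPKM over the 6 libraries were tested on log2(FPKM + 1) with limma, and 9 of 11540 genes (0.078%) passed an adjusted p of 0.05.

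None of the SOX genes passed that threshold. The SoxE genes Sox10 and Sox8 had the smallest p-values of the 8 that were tested (limma). Both had lower values in all 3 blebbistatin libraries than in any control, while Sox9, of the same subgroup, overlapped between the groups. Sox5 was not tested because its mean was 0.884 FPKM. Of the 8 tested, 6 had lower means and 2 had higher means with blebbistatin, where 44.8% of all genes tested had lower means. At an unadjusted p under 0.05 there were 2, both lower, where 9.36% of all genes tested reached that p in either direction and 4.9% were lower. The groups did not overlap for 3 (Sox10, Sox8 and Sox6), all lower, against 6.8% of all genes that were lower without overlap. Sox8 passed the filter on low values through the controls alone, so these counts do not speak for the whole set.

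Sox10 had the highest level of the SOX genes, above 96.9% of the genes tested. It lies on the minus strand of mm10 chromosome 15 from 79154913 to 79164490, in 4 exons. No exon of the 9 genes overlaps one of another gene in the deposited annotation. Blebbistatin replicates 1, 2 and 3 had 121, 158 and 152 FPKM of Sox10, and control replicates 1, 2 and 3 had 214, 216 and 206 FPKM. The controls lay close together, and each blebbistatin library was below all of them, with replicate 1 the lowest. The mean was 143 ± 19.9 FPKM with blebbistatin and 212 ± 5.42 FPKM in controls (SD, n = 3 each), 32.3% lower. The log2 fold change was -0.57 ± 0.12 (SE), with a 95% interval from -0.84 to -0.30, and the adjusted p of 0.126 (limma) did not pass. In bulk RNA, fewer Sox10 cells and less Sox10 RNA per cell cannot be told apart. Set against Epcam in the same library, Sox10 was 0.326, 0.390 and 0.401 of the Epcam value with blebbistatin and 0.501, 0.486 and 0.512 of it in controls, again without overlap.

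Sox10 is also a gene of Schwann cells and their crest precursors, so markers of those cells were set beside it. The 12 markers summed to between 41.6 and 48.8 FPKM with blebbistatin and between 41.0 and 51.1 FPKM in controls, which overlap. Most of that sum came from Ngfr, Postn and Mbp. The defining markers Cdh19, Foxd3 and Dhh were under 0.1 FPKM in all libraries. Of the crest markers, none of the 3 genes at or above the filter differed at an unadjusted p under 0.05.

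Sox9, the end bud and cartilage factor, ranked next after Sox10 and Sox4 in level and lies on the plus strand of chromosome 11 from 112782210 to 112787757, in 3 exons. It had 44.7, 50.1 and 37.1 FPKM in blebbistatin replicates 1 to 3 and 47.0, 57.8 and 37.8 FPKM in control replicates 1 to 3. The groups overlapped, and the lowest library of each was replicate 3. The log2 fold change was -0.10 ± 0.17 (SE, 95% interval -0.48 to 0.28, adjusted p = 0.987, limma), an interval that takes in changes of either sign. As a share of Epcam, Sox9 averaged 0.114 ± 0.0139 with blebbistatin and 0.112 ± 0.0181 in controls (SD, n = 3 each). The ratio of Sox10 to Sox9 was 2.70, 3.15 and 4.08 with blebbistatin and 4.55, 3.73 and 5.44 in controls, so that blebbistatin replicate 3 reached into the range of the controls. Without blebbistatin replicate 3 or control replicate 2 the sign of the Sox9 change turned, with 0.013 and 0.048 on the log2 scale.

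Sox8, the third SoxE gene, had the largest log2 fold change of the tested 8 at a low level. It lies on the minus strand of chromosome 17 from 25565893 to 25570686, in 3 exons. Blebbistatin replicates 1, 2 and 3 had 0.442, 1.02 and 0.670 FPKM, and control replicates 1, 2 and 3 had 1.502, 1.73 and 1.62 FPKM. The highest blebbistatin library was below the lowest control, and the spread was wider with blebbistatin. The mean was 0.711 ± 0.292 FPKM with blebbistatin and 1.62 ± 0.114 FPKM in controls (SD, n = 3 each), 56.0% lower. The log2 fold change was -0.63 ± 0.14 (SE, 95% interval -0.96 to -0.29), and the adjusted p of 0.158 (limma) did not pass. Adding 1 before the logarithm shrinks changes at this level, and with 0.1 added instead the log2 fold change was -1.14. At the estimated depths Sox8 rested on about 37 to 170 fragments per library, while Sox10 rested on about 9100 to 19000.

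**Figure D1:**
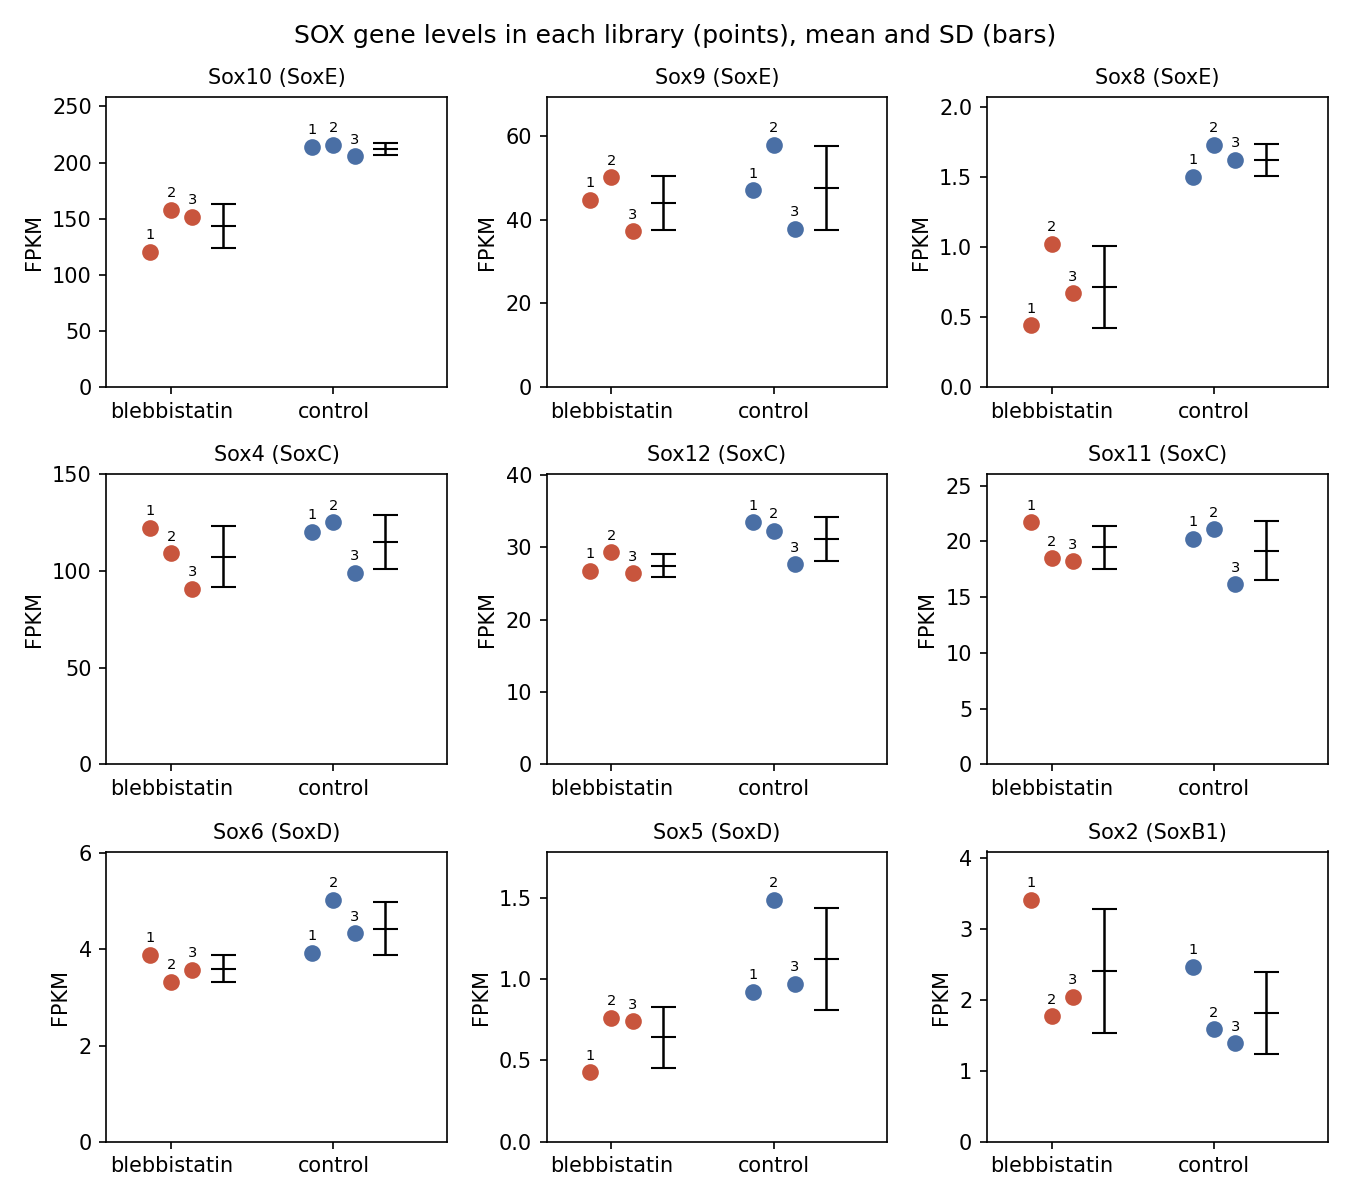
FPKM of the 9 SOX genes by library, blebbistatin left of control, with the replicate number above each point and the mean and SD as bars; every axis starts at 0 and has its own scale. The groups do not overlap for Sox10, Sox8, Sox6 and Sox5, each lower with blebbistatin, and overlap for Sox9, Sox4, Sox12, Sox11 and Sox2. Of all genes tested, 6.8% were lower without overlap. Sox5 was not tested, and Sox8 passed the filter through the controls alone.

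Summed over Sox8, Sox9 and Sox10, the SoxE level was 166, 209 and 189 FPKM in blebbistatin replicates 1 to 3 and 263, 275 and 245 FPKM in control replicates 1 to 3. Most of this sum was Sox10. SoxE made up 53.8 ± 4.96% of the summed FPKM of the 9 genes with blebbistatin and 60.3 ± 1.59% in controls (SD, n = 3 each). The SoxC genes made up 44.3 ± 4.70% with blebbistatin and 38.0 ± 1.60% in controls. These shares sum to a whole, so one cannot drop without another gaining.

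Of the SoxC genes, Sox4 was second in level over all 9, on chromosome 13 from 28950730 to 28953682 in a single exon. It had 123, 109 and 90.9 FPKM in blebbistatin replicates 1 to 3 and 120, 125 and 99.1 FPKM in control replicates 1 to 3, which overlap. Its log2 fold change was -0.10 ± 0.14 (SE, 95% interval -0.42 to 0.22, adjusted p = 0.982, limma), and it was 0.018 without blebbistatin replicate 3. Sox12, on chromosome 2 from 152393612 to 152398046 in a single exon, had 26.8, 29.3 and 26.4 FPKM with blebbistatin and 33.5, 32.3 and 27.7 FPKM in controls. Only control replicate 3 lay among the blebbistatin libraries, and the log2 fold change was -0.17 ± 0.10 (SE, 95% interval -0.40 to 0.06, adjusted p = 0.728). Sox11, on chromosome 12 from 27334268 to 27342718 in a single exon, had 21.7, 18.5 and 18.2 FPKM with blebbistatin and 20.2, 21.1 and 16.1 FPKM in controls. Its groups overlapped, with a log2 fold change of 0.03 ± 0.12 (SE, 95% interval -0.25 to 0.31, adjusted p = 0.999) that was -0.048 without blebbistatin replicate 1 and -0.085 without control replicate 3.

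The SoxD genes Sox6 and Sox5 stood low, and both had lower values in every blebbistatin library than in any control. Of all genes tested, which leave out Sox5, 6.8% were lower without overlap. Sox6 lies on the minus strand of chromosome 7 from 115470872 to 116038744. It had 3.88, 3.33 and 3.58 FPKM in blebbistatin replicates 1 to 3 and 3.93, 5.02 and 4.33 FPKM in control replicates 1 to 3, so that blebbistatin replicate 1 and control replicate 1 nearly met. The log2 fold change was -0.24 ± 0.11 (SE, 95% interval -0.48 to 0.01, adjusted p = 0.564, limma). Sox5 lies on the minus strand of chromosome 6 from 143828425 to 144209568. It had 0.426, 0.762 and 0.740 FPKM with blebbistatin and 0.921, 1.49 and 0.970 FPKM in controls, with blebbistatin replicate 1 the lowest. It entered a test only when no filter was used, with a log2 fold change of -0.37 ± 0.13 (SE) and an adjusted p of 0.486 (limma).

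Sox5 and Sox6 are the 2 genes of the 9 with more than 1 annotated transcript, and the division of their FPKM among transcripts differed between libraries of one group. Of the 6 Sox6 transcripts, 2 had a mean of at least 1 FPKM. The Sox6 transcript of 8706 nt had 1.58, 1.80 and 0.920 FPKM with blebbistatin and 0.926, 2.36 and 2.35 FPKM in controls. The Sox6 transcript of 8411 nt had 1.53, 0.507 and 1.32 FPKM with blebbistatin and 1.36, 0.765 and 0.829 FPKM in controls. Both overlapped between the groups, with log2 fold changes of -0.21 ± 0.26 (SE, adjusted p = 0.986, limma over 14460 transcripts) for the transcript of 8706 nt and 0.07 ± 0.24 (adjusted p = 0.999) for that of 8411 nt. Over all transcripts 1 of 14460 passed (0.00692%), and it was none of these genes. The Sox5 transcript of 7331 nt made up 63.4%, 33.8% and 60.6% of Sox5 in blebbistatin replicates 1 to 3 and 32.1%, 54.4% and 74.0% in control replicates 1 to 3. The spread within either group was wider than the difference of the group means, which were 52.6% with blebbistatin and 53.5% in controls.

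**Figure D2:**
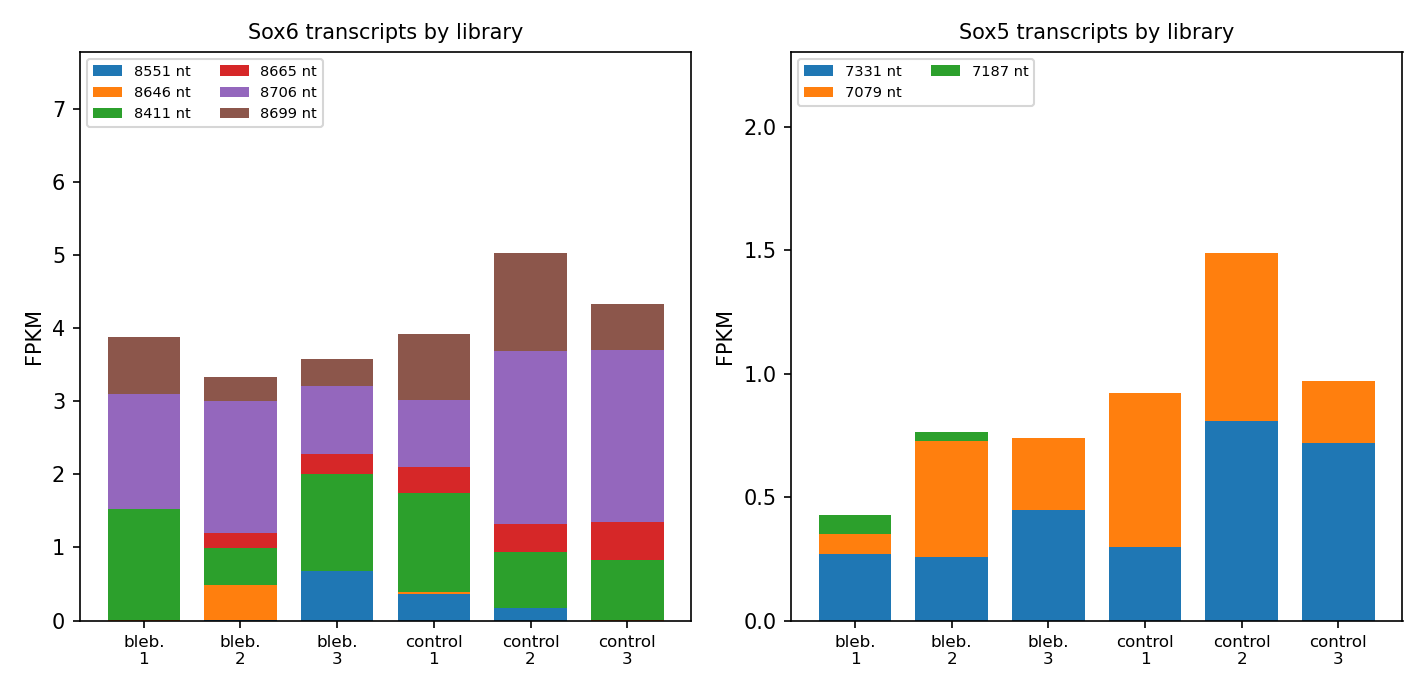
FPKM of each annotated transcript of Sox6 (left) and Sox5 (right), stacked by library, with transcripts named by their length in nucleotides (nt). The total is lower in each blebbistatin library than in each control, and which transcript leads changes from library to library, as for the Sox6 transcript of 8706 nt with 0.920 to 1.80 FPKM with blebbistatin and 0.926 to 2.36 FPKM in controls.

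Promoter sequence was at hand for 7 of the 9 genes, as 12 windows of the 250 bases before a transcript start (RefSeq, GRCm38.p6, the assembly of mm10), and Sox9 and Sox10 were not among them. Windows were searched on both strands for the SOX core letters AACAAT and ACAAAG and for the ETS core CCGGAA, none of which overlap each other in the windows shown. Shown are the windows of the leading Sox6 transcripts, since SOX genes can act on each other, and of Sox8, the gene with the largest log2 fold change, all written 5′ to 3′ on the minus strand with matches in capitals.
Sox6, start of the 8706 nt transcript, chr7:115824711-115824960: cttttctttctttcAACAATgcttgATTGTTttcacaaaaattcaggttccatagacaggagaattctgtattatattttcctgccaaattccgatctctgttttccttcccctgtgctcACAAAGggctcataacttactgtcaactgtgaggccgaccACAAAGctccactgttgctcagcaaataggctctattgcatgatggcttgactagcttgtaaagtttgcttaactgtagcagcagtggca
Sox6, start of the 8411 nt transcript, chr7:115801610-115801859: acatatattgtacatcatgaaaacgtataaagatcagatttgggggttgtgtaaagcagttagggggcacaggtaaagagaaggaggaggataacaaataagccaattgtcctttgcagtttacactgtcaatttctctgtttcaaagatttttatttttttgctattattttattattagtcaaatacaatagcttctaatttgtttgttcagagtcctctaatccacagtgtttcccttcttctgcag
Sox8, chr17:25570687-25570936: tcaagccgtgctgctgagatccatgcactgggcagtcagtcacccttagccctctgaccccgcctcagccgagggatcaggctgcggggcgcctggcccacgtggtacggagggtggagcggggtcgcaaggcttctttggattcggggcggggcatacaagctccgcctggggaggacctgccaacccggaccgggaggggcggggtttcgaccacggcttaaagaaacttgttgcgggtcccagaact
The window of the 8706 nt Sox6 transcript held 4 matches, which were AACAAT once on each strand, starting 236 and 225 bases before the start, and ACAAAG at 130 and 90 bases before it. The windows of the 8411 nt Sox6 transcript and of Sox8 held none of the 3 motifs. ACAAAG was in 5 of the 6 Sox6 windows and in that of Sox2, and in 16.5% of all 32851 windows of the same length. AACAAT was in 1 of the 12 windows of the SOX genes and in 9.42% of all windows, and CCGGAA was in 1 (Sox2) and in 12.03% of all. The Sox6 window with 4 matches has a GC content of 41.6%, and that of Sox8 has 65.6%.

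Sox2, the SoxB1 gene of early progenitors, lies on the plus strand of chromosome 3 from 34650005 to 34652460, in a single exon within an intron of the noncoding gene Sox2ot, which reached at most 0.166 FPKM. Sox2 had 3.40, 1.77 and 2.04 FPKM in blebbistatin replicates 1 to 3 and 2.47, 1.59 and 1.39 FPKM in control replicates 1 to 3. The groups overlapped, and replicate 1 was the highest of each. The log2 fold change was 0.26 ± 0.21 (SE, 95% interval -0.21 to 0.74, adjusted p = 0.868, limma), and it was between 0.063 and 0.42 when single libraries were left out.

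**Figure D3:**
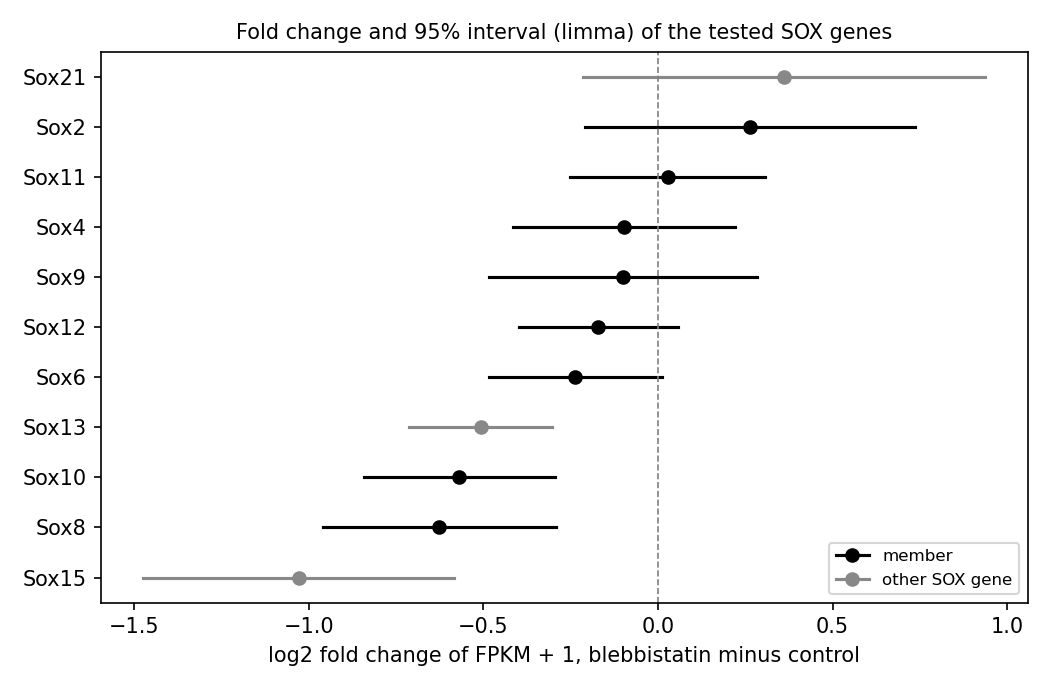
Log2 fold change of FPKM + 1, blebbistatin minus control, with its 95% interval (limma) for the 8 tested genes of the set (black) and the 3 other SOX genes that were tested (grey). The intervals of Sox10 (-0.84 to -0.30), Sox8 (-0.96 to -0.29), Sox13 and Sox15 lie below 0 before any adjustment over genes, and those of the other genes take in 0. A lower mean at an unadjusted p under 0.05 (limma) was reached by 4.9% of all genes tested. Sox8 passed the filter on low values through the controls alone.

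In order of level, both groups ran Sox10, Sox4, Sox9, Sox12, Sox11, Sox6, Sox2, Sox8 and Sox5. With blebbistatin the ranges of Sox10 and Sox4 overlapped (121 to 158 and 90.9 to 123 FPKM), whereas in controls they were apart (206 to 216 and 99.1 to 125 FPKM). Sox6 and Sox2 also overlapped with blebbistatin, as did Sox8 and Sox5, and in controls Sox2 and Sox8 did. All other neighbours in the order were apart in their ranges.

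Of 10 other SOX genes in the table, 3 were tested, and 7 (Sox1, Sox3, Sox7, Sox14, Sox17, Sox18 and Sox30) had means under 1 FPKM. Sox13, a SoxD gene like Sox5 and Sox6, had 18.8, 21.9 and 19.3 FPKM in blebbistatin replicates 1 to 3 and 27.9, 30.03 and 28.5 FPKM in control replicates 1 to 3. Sox15, which lies apart in the SoxG subgroup, had 7.50, 7.15 and 8.28 FPKM with blebbistatin and 22.9, 12.1 and 16.3 FPKM in controls. Both had lower values without overlap, with log2 fold changes of -0.51 ± 0.09 (SE, limma adjusted p = 0.0785) for Sox13 and -1.03 ± 0.19 (adjusted p = 0.0929) for Sox15, and neither passed. Lower values without overlap were seen in 6.8% of all genes tested. Exons of Sox15 overlap those of Mpdu1 on the opposite strand, and with no strand stated their fragments may be shared. Sox21, of the SoxB2 subgroup, had 15.5, 7.49 and 7.89 FPKM with blebbistatin and 9.14, 7.04 and 6.20 FPKM in controls, which overlap (0.36 ± 0.25, adjusted p = 0.836, and 0.052 without blebbistatin replicate 1).

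**Figure D4:**
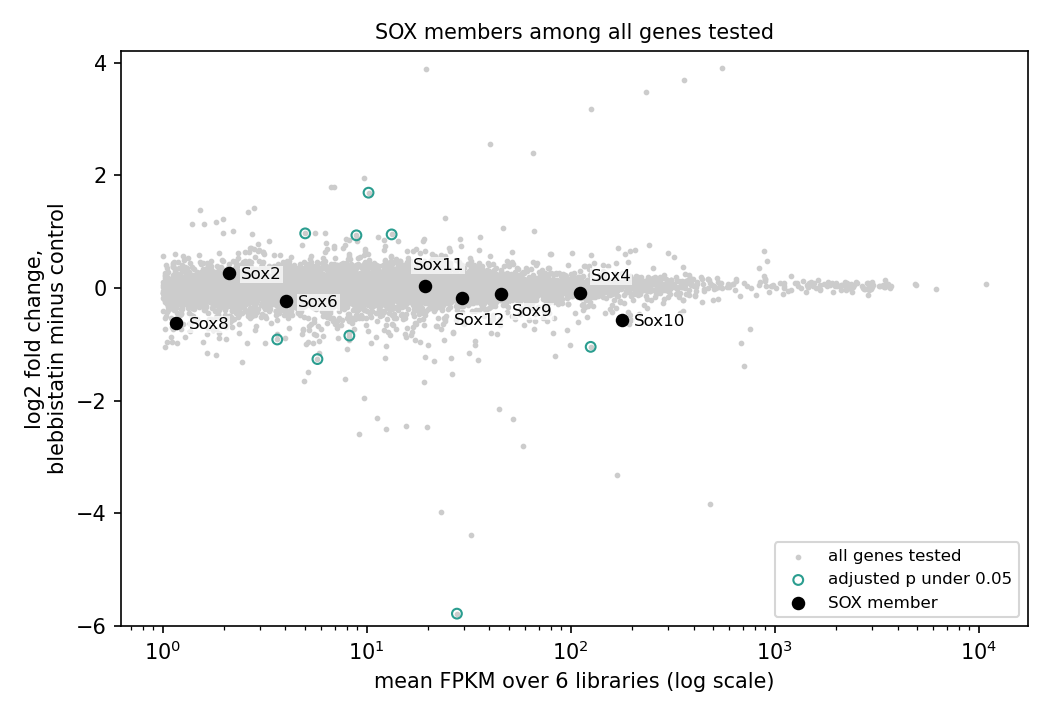
Log2 fold change, blebbistatin minus control, against mean FPKM over the 6 libraries (log axis) for the 11540 genes tested (grey), with the 9 genes past an adjusted p of 0.05 circled and the 8 tested SOX genes in black. Sox8 (-0.63), at a low level, and Sox10 (-0.57), at a high one, are the lowest of the SOX genes shown. Other genes lie below them at similar levels, such as Adamts16 (-0.97) and Col2a1 (-1.05). No SOX gene is circled.

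Genes that SOX9 activates with SOX5 and SOX6 in cartilage had 12 tested members, with 8 lower means and 4 higher. The median of their log2 fold changes was -0.12, against 0.015 over all genes tested, and it was -0.28 over the 8 members with a mean of at least 5 FPKM and -0.038 over all 20 with no filter. The gene lists were chosen with earlier results of these data known, so their counts beside the shares of all genes are description only. Of the 12 tested here, 4 were higher and 4 lower at an unadjusted p under 0.05 (limma). That p was reached in either direction by 9.36% of all genes tested. The 4 higher were Fgfr3 (log2 fold change 0.48), Col11a1 (0.44), Lect1 (0.42) and Ucma (0.38), of which Fgfr3 and Col11a1 were named after their values were seen. Of the 12, 1 passed, lower, where 0.0433% of all genes tested did, and it was Col2a1, the chain of type II collagen. It had 71.7, 76.5 and 97.2 FPKM in blebbistatin replicates 1 to 3 and 156, 171 and 180 FPKM in control replicates 1 to 3 (log2 fold change -1.05 ± 0.13, SE, adjusted p = 0.0461, limma), and the call was lost without any 1 of the controls or of blebbistatin replicates 1 and 2, with no filter on low values, and after median-of-ratios or quantile rescaling. The type IX collagen chains Col9a2 (-1.01 ± 0.16, adjusted p = 0.0727) and Col9a1 (-0.64 ± 0.16, adjusted p = 0.180) had lower values without overlap and did not pass. Ucma, a secreted cartilage protein, stood at 9.40 ± 0.461 FPKM with blebbistatin and 7.01 ± 1.13 FPKM in controls (SD, n = 3 each, adjusted p = 0.272). The cartilage markers Acan, Matn1 and Hapln1 were under 0.1 FPKM in all 6 libraries. All 6 chondrocyte markers other than collagens summed to between 23.9 and 31.6 FPKM with blebbistatin and between 19.5 and 23.4 FPKM in controls. Most of this sum came from Lect1 and Ucma, which are also among the 12 targets. The sum was higher where Col2a1, Col9a1 and Col9a2 were lower, while Col11a1 was higher as well. The part of cartilage cells in these values was not tested.

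Genes that SOX10 activates in crest, melanocytes and glia were mostly low, with 4 of 18 tested, and none of them passed. Erbb3, the neuregulin receptor, had 51.6, 54.3 and 53.4 FPKM in blebbistatin replicates 1 to 3 and 74.5, 89.8 and 77.8 FPKM in control replicates 1 to 3. The groups did not overlap, and the log2 fold change was -0.59 ± 0.10 (SE, adjusted p = 0.0785, limma). Egr2, a zinc finger factor of myelinating cells, had 3.59, 7.38 and 4.51 FPKM with blebbistatin and 6.02, 12.6 and 8.89 FPKM in controls, which overlap (-0.72 ± 0.27, adjusted p = 0.428). Mbp (0.06 ± 0.13) and Cnp (-0.03 ± 0.14), both myelin genes, lay near 0. At an unadjusted p under 0.05 there were 2 of the 4, Erbb3 and Egr2, both lower, where 4.9% of all genes tested were lower at that p.

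End bud, FGF response and early acinar genes had 20 tested members, with 12 lower means and 8 higher. Their median log2 fold change was -0.18. It was -0.059 over the 17 members with a mean of at least 5 FPKM and -0.24 over 21 with no filter. None passed with limma, and at an unadjusted p under 0.05 there were 6 lower and 3 higher, where 9.36% of all genes tested reached that p in either direction. The receptor kinase Kit had 5.38, 16.3 and 16.2 FPKM in blebbistatin replicates 1 to 3 and 21.5, 36.4 and 32.6 FPKM in control replicates 1 to 3, lowest in the blebbistatin library that was also lowest in Sox10 and Sox8. Its log2 fold change was -1.30, and -0.82 without that library. Agr2, a disulfide isomerase of the secretory pathway, had a log2 fold change of -0.96 ± 0.18 (SE, limma adjusted p = 0.0929), and the claudin Cldn10 one of -0.48 ± 0.10 (adjusted p = 0.121). Mycn, a growth-promoting transcription factor, stood at 11.8 ± 2.71 FPKM with blebbistatin and 6.18 ± 1.25 FPKM in controls (SD, n = 3 each, adjusted p = 0.139).

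Duct and basal genes had 15 tested members, with 10 higher means and 5 lower. The middle of their log2 fold changes was 0.10, and its sign turned without blebbistatin replicate 1 (-0.031) and without control replicate 3 (-0.012). None passed with limma, and at an unadjusted p under 0.05 there were 2, both higher, where 9.36% of all genes tested reached that p in either direction. These were the EGF receptor gene Egfr (0.64 ± 0.16, SE, adjusted p = 0.190) and the basal keratin Krt15 (0.91 ± 0.38, adjusted p = 0.498). The other keratins of smallest p were Krt14 (0.44 ± 0.22, adjusted p = 0.613) and Krt19 (0.34 ± 0.27, adjusted p = 0.886). Blebbistatin replicate 1, lowest in Sox10, was the highest library for each of these 4 genes. Among the controls, replicate 1 was also the highest for Krt15, Krt14 and Krt19, and it was the lowest for Egfr. Its Sox10 value of 214 FPKM lay between those of the other controls. Without blebbistatin replicate 1 the log2 fold change was 0.47 for Egfr, 0.58 for Krt15, 0.28 for Krt14 and 0.041 for Krt19.

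Partner factors and cofactors of SOX proteins had 20 tested members, split evenly between 10 higher and 10 lower means, and their median log2 fold change was -0.0042, with values from -0.091 to 0.046 when single libraries were left out. None passed with limma, and at an unadjusted p under 0.05 there was 1, lower, where 4.9% of all genes tested were lower at that p. This was Tfap2b, an AP-2 factor, with 24.1, 40.2 and 40.7 FPKM in blebbistatin replicates 1 to 3 and 45.0, 64.5 and 56.0 FPKM in control replicates 1 to 3 (-0.67 ± 0.21, SE, adjusted p = 0.305), and its log2 fold change was -0.425 without blebbistatin replicate 1. The chromatin remodellers Chd7 (-0.21 ± 0.11, adjusted p = 0.645) and Smarca4 (-0.14 ± 0.10, adjusted p = 0.846) and the SUMO ligase Pias1 (0.14 ± 0.09, adjusted p = 0.824) followed.

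**Figure D5:**
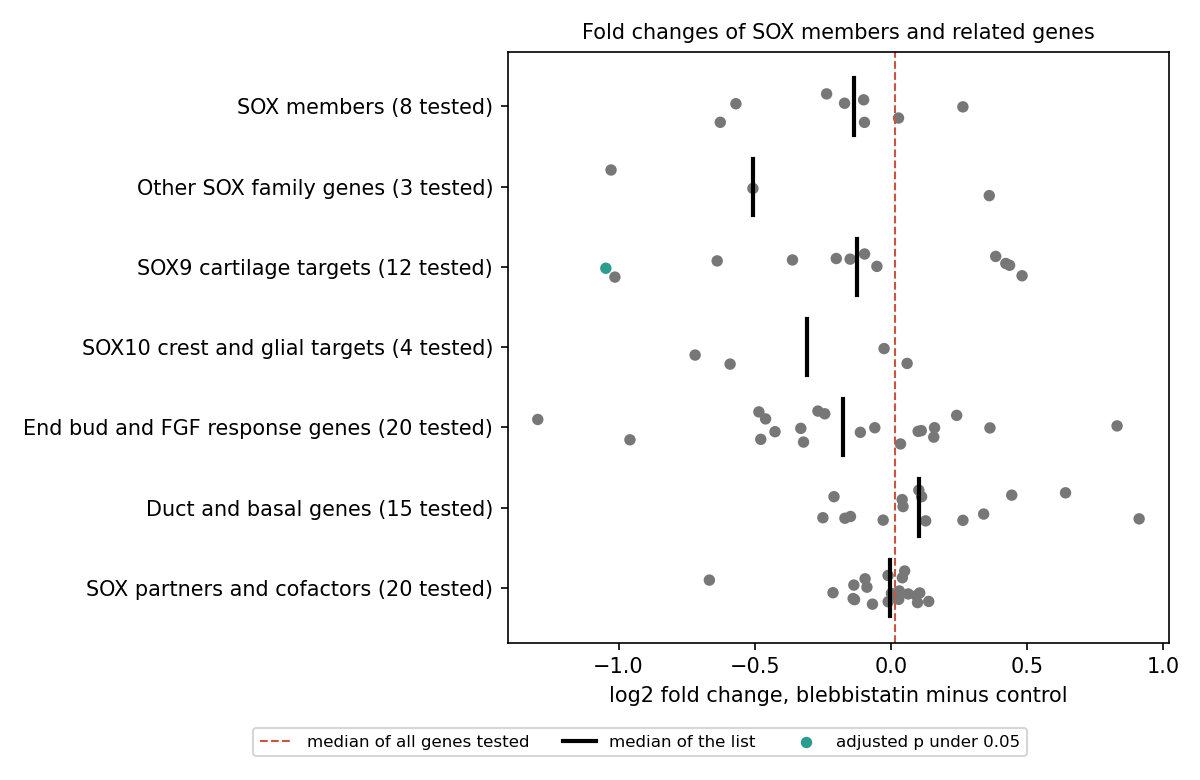
Log2 fold change, blebbistatin minus control, of each tested gene (points, spread vertically for sight) in the SOX set and in related gene lists, with the list median (black bar) and the median of all genes tested (dashed line, 0.015). Of these genes Col2a1 alone passed an adjusted p of 0.05, and list medians run from -0.51 over 3 other SOX genes to 0.10 over 15 duct and basal genes.

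Across the 6 libraries the profile nearest to that of Sox10, by the root mean square difference of log2(FPKM + 1) deviations from the mean, was that of Itga4, an integrin chain (0.0306, where the SD of Sox10 was 0.339). Trpv6, a calcium channel (0.0315), and Ndrg2 (0.0543) came next. Itga4 stood low, with 0.755 to 1.14 FPKM with blebbistatin and 1.88 to 1.98 FPKM in controls. At that level adding 1 before the logarithm shrinks changes. The Itga4 mean was 47.7% lower with blebbistatin, against 32.3% for Sox10, so the match holds on the log2(FPKM + 1) scale only. Trpv6 had 27.8, 37.0 and 34.1 FPKM in blebbistatin replicates 1 to 3 and 48.5, 48.6 and 49.2 FPKM in control replicates 1 to 3, the same order of a low blebbistatin replicate 1 and close controls. Nearest to Sox9 were Nhej1 (0.0593), Tnfrsf11b (0.0639) and the keratin Krt18 (0.0669), where the SD of Sox9 was 0.239. Krt18 had 343, 350 and 263 FPKM with blebbistatin and 368, 414 and 294 FPKM in controls. These are the closest among the 11540 tested genes over 6 libraries and are given as a description.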

How the data were processed

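RNA labelled as from E13 mouse submandibular glands, whose epithelial buds the series title names, was sequenced in 3 blebbistatin and 3 control libraries. Per the labels' protocols, RNA came from RNeasy columns and libraries from the Illumina TruSeq RNA kit, and strand is not stated. The submitters' processing notes name TopHat2 2.0.13, Bowtie2 2.2.3, Cufflinks 2.2.1 and mm10. Per the file headers, the authors deposited FPKM per gene and per transcript, and their RefSeq annotation gave exons and positions.

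The BB columns were read as blebbistatin, and each unnumbered column as replicate 1. FPKM are scaled values, so no count model was used. Genes (11540 of 24067) and transcripts (14460 of 33819) with a mean of at least 1 FPKM were put on the log2(FPKM + 1) scale and tested in limma 3.58.1 (R 4.3.3), with empirical Bayes moderation and a mean-variance trend, the treatment as the only term, two-sided, and Benjamini-Hochberg adjustment over all genes or transcripts at 0.05. The code was tested on simulated data.

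Depth was estimated from genes of 1 transcript of 1500 to 5000 nt. SOX genes and lists were chosen with earlier results of these data known. Named from each list are genes past the threshold and up to 4 of smallest p. Of the marker lists these are mostly given as sums. For Sox9 and Sox10 the 3 genes of nearest profile with an SD of at least 0.5 times theirs are named, small RNA genes left out. Alternatives were other filters, pseudocount, rescalings, array weights, a replicate block and each library left out.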

Additional observations from a re-analysis of the deposited data

How the results depend on the processing

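The count of 0 SOX genes past the threshold (limma) held under all 13 alternatives, and that of 0 of their transcripts under the 9 run for transcripts. Sox10 kept its sign in all 13, with log2 fold changes from -0.64 to -0.45 and adjusted p from 0.0662 to 0.321, and Sox8 in the 12 that tested it, from -1.14 to -0.51 and adjusted p from 0.0655 to 0.366. The adjusted p was lowest for both with the replicate block. Leaving out single libraries turned the sign of Sox4 (-0.20 to 0.018), Sox9 (-0.25 to 0.048), Sox11 (-0.085 to 0.098), Mbp (-0.051 to 0.148), Cnp (-0.123 to 0.125) and Ngfr (-0.459 to 0.014), and array weights turned Cnp (0.019) and Ngfr (0.0092). The causes were not tested.

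The 9 genes called in all became 1 with no filter, 27 with a minimum of 5 FPKM, 2 after median-of-ratios rescaling (1 higher, 1 lower), 14 after quantile normalization, 57 with array weights, and 1 to 13 without single libraries. The 1 cartilage target became 0 with no filter, after median-of-ratios rescaling and after quantile normalization, 2 with a minimum of 5 FPKM and with array weights, and 0 to 1 without single libraries. With array weights 1 other SOX gene (Sox15) and 1 SOX10 target were called, and the end bud list had 1 call after quantile normalization and 0 to 1 without single libraries.

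Same-numbered libraries deviated together with r of 0.182, 0.0941 and 0.253 across genes, each sample closest to its own number, which is a hint from the data, and the labels state no pairing. With the replicate block 144 genes were called, with 1 other SOX gene, 2 cartilage targets, 2 SOX10 targets, 3 end bud genes, 1 duct gene and 1 partner. No scaling moved the median of all genes by over 0.1. Depth limits Sox8, at about 37 fragments in its lowest library, and Sox2, at about 95.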
